A study of Mus musculus with 15 samples.

Results

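The VEGF ligands and receptors were followed as 7 genes, the ligands *Vegfa*, *Vegfb*, *Vegfc* and *Pgf* and the receptor genes *Flt1*, *Kdr* and *Flt4*, out of the 55573 genes counted in mouse trigeminal ganglia (TG). They were taken by symbol as a family, and the family was selected on the normalized counts of *Vegfc*, which were low in the RvD6si group, so the values of these 7 genes in RvD6si against vehicle are descriptions with no test. The TG came from the right, injured side of ten-week-old male CD1 mice, in which the epithelium and anterior stroma of the central cornea had been removed within a 2 mm trephine mark. The eye then received topical vehicle, RvD6 (labelled RvD6-standard) or RvD6si (labelled RvD6-isomer), applied 3 times daily until tissue collection on day 12, with 5 samples in each group. RvD6si is a stereoisomer of the resolvin RvD6, and both are dihydroxy derivatives of docosahexaenoic acid. The vehicle group carried the same injury as the treated groups, no uninjured TG was analysed here, and the applied amount of each lipid is not given in the sources used here.

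The trigeminal ganglion holds the cell bodies of the sensory neurons of the cornea, their satellite glia and Schwann cells, and a capillary bed. VEGF family ligands are secreted dimers that bind receptor tyrosine kinases carried mainly by endothelial cells. VEGF-A drives the growth and permeability of blood vessels through VEGFR2, the product of *Kdr*, while VEGFR1, the product of *Flt1*, binds VEGF-A tightly with weak signalling and is the receptor of VEGF-B and PlGF. VEGF-C acts through VEGFR3, the product of *Flt4*, on lymphatic vessels and, once processed, also through VEGFR2. Several family members are also known to act on neurons and glia.

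Libraries held between 4125962 and 9903396 counted reads, with a median of 7756538. All 10 sensory neuron markers were counted in every library. Their summed normalized counts (reads divided by DESeq2 size factors) were 55290 to 61010 in vehicle, 27570 to 53800 in RvD6 and 46620 to 58460 in RvD6si. In RvD6 against vehicle 10 of the 10 had log2 fold changes below 0, 6 with an unadjusted edgeR p under 0.05. Of all tested genes 13.6% had such a p in that comparison. Satellite glia markers summed to 47960 to 57890, 35860 to 47290 and 32380 to 46450 in the same order. By log2 fold change, 3 of these 6 markers were below 0 against vehicle with each lipid. Skeletal muscle markers summed to 675 to 21890 normalized counts in RvD6 libraries, against 119 to 1101 in vehicle and 53.6 to 226 in RvD6si libraries. Bone marrow precursor markers summed to 3330 to 11350 in RvD6, 523 to 2975 in vehicle and 233 to 8469 in RvD6si, where replicate 15 held the highest value. Erythroid markers summed to 36380 to 66270 in RvD6, 14670 to 31350 in vehicle and 5948 to 74110 in RvD6si. Pituitary markers summed to 1627 to 16630, 71.4 to 26960 and 145 to 4770 in that order. In RvD6si against RvD6, 7 of the 8 muscle markers and 1 of 7 tested pericyte and smooth muscle markers were called lower by edgeR, and edgeR made no other call in the 12 marker lists in any comparison. In RvD6 against vehicle 8 of 8 muscle, 7 of 7 precursor and 5 of 5 erythroid markers were higher with an unadjusted p under 0.05. DESeq2 called the 8 muscle markers there, 2 of 5 fibroblast markers and 0 precursor or erythroid markers. The part of these transcripts in the values below was not tested.

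The promoters of 4 members are shown, because the ligand genes *Vegfc* and *Pgf* lay lower, and the receptor genes *Flt1* and *Kdr* higher, in treated than in vehicle TG by group mean. Each stretch is the 250 bases before a RefSeq start on GRCm38.p6, read 5′ to 3′ on the strand of the gene, with the GC box GGGCGG, searched on both strands, in capitals. All 7 members had an entry. The windows lie at chr8:54077282-54077531 on the plus strand, and at chr12:85177314-85177563, chr5:147726012-147726261 and chr5:75978456-75978705 on the minus strand.
Vegfc: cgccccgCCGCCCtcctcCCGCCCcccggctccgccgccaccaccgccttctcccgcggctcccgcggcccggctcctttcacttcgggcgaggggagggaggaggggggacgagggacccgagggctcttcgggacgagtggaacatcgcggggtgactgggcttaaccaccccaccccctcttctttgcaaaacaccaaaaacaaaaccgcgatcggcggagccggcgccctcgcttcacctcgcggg
Pgf: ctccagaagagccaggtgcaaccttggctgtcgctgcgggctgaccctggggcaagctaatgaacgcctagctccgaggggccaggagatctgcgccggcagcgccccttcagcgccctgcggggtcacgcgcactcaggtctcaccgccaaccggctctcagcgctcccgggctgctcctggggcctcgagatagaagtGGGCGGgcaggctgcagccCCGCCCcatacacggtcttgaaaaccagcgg
Flt1: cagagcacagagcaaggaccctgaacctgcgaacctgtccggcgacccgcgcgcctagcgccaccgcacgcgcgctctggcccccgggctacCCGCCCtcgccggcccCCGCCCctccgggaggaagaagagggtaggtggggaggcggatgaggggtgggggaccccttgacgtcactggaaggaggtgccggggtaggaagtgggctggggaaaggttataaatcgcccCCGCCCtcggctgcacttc
Kdr: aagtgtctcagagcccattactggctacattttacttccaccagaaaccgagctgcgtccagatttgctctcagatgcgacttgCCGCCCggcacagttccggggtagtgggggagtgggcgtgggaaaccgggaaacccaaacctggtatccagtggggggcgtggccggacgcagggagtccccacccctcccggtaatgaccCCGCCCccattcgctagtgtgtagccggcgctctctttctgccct
The *Vegfc*, *Pgf* and *Kdr* stretches each held 2 GC boxes and the *Flt1* stretch held 3. The *Vegfb* window, not printed, held 4 at 76.4% GC. A window before another RefSeq start of *Pgf*, chr12:85175983-85176232 on the minus strand and not printed, held 0 GC boxes at 66.4% GC. Of 32851 promoter windows of the same length 32.7% held the motif. GC content was 71.6% for *Vegfc*, 68.4% for *Pgf*, 70.4% for *Flt1* and 61.6% for *Kdr*, against a median of 52.4% over all windows. A TATA box, TATAAA on either strand, was present in the *Flt1* stretch and in 12.4% of all windows. These matches are descriptions of sequence and were not set against binding.

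Per unit of transcript length, the family as counted in these libraries was mostly *Vegfb* and *Pgf* on the ligand side and *Flt1* and *Kdr* on the receptor side. In TPM, counts per transcript length scaled to the same total in every sample, over all 15 samples, *Vegfb* averaged 22.6 ± 12.2, *Pgf* 15.4 ± 4.86, *Flt1* 5.84 ± 1.36 and *Kdr* 5.81 ± 2.08 (SD). *Vegfc* averaged 1.65 ± 1.72 TPM, *Flt4* 0.882 ± 0.713 TPM and *Vegfa* 0.248 ± 0.173 TPM. *Vegfb* was above *Pgf* in 11 of 15 samples, and *Flt1* was above *Kdr* in 9 of 15, so neither pair was separated beyond its spread. *Pgf* was above *Flt1* in 15 of 15 samples, *Kdr* was above *Vegfc* in 14 of 15, *Vegfc* was above *Flt4* in 8 of 15, and *Flt4* was above *Vegfa* in 13 of 15.

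*Pgf* made up 47.0% ± 9.08 of the summed ligand TPM in vehicle, 39.5% ± 8.55 in RvD6 and 34.1% ± 16.3 in RvD6si TG (SD, n = 5). The share of *Vegfb* was 45.1% ± 9.67, 55.0% ± 9.78 and 65.2% ± 16.4 in the same order, and that of *Vegfc* 7.20% ± 3.17, 4.58% ± 4.09 and 0.230% ± 0.325. *Vegfa* made up less than the other ligands in vehicle and RvD6 TG, with mean shares of 0.714% and 0.958%, and reached 0.423% in RvD6si TG. On the receptor side *Flt1* made up 48.3%, 45.2% and 48.4% of the summed TPM in vehicle, RvD6 and RvD6si TG. The log2 ratio of *Flt1* to *Kdr* TPM was 0.17 ± 0.41, −0.07 ± 0.66 and 0.08 ± 0.15 (SD), so the ranges of the groups overlapped and were narrowest in RvD6si.

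**Figure D1:**
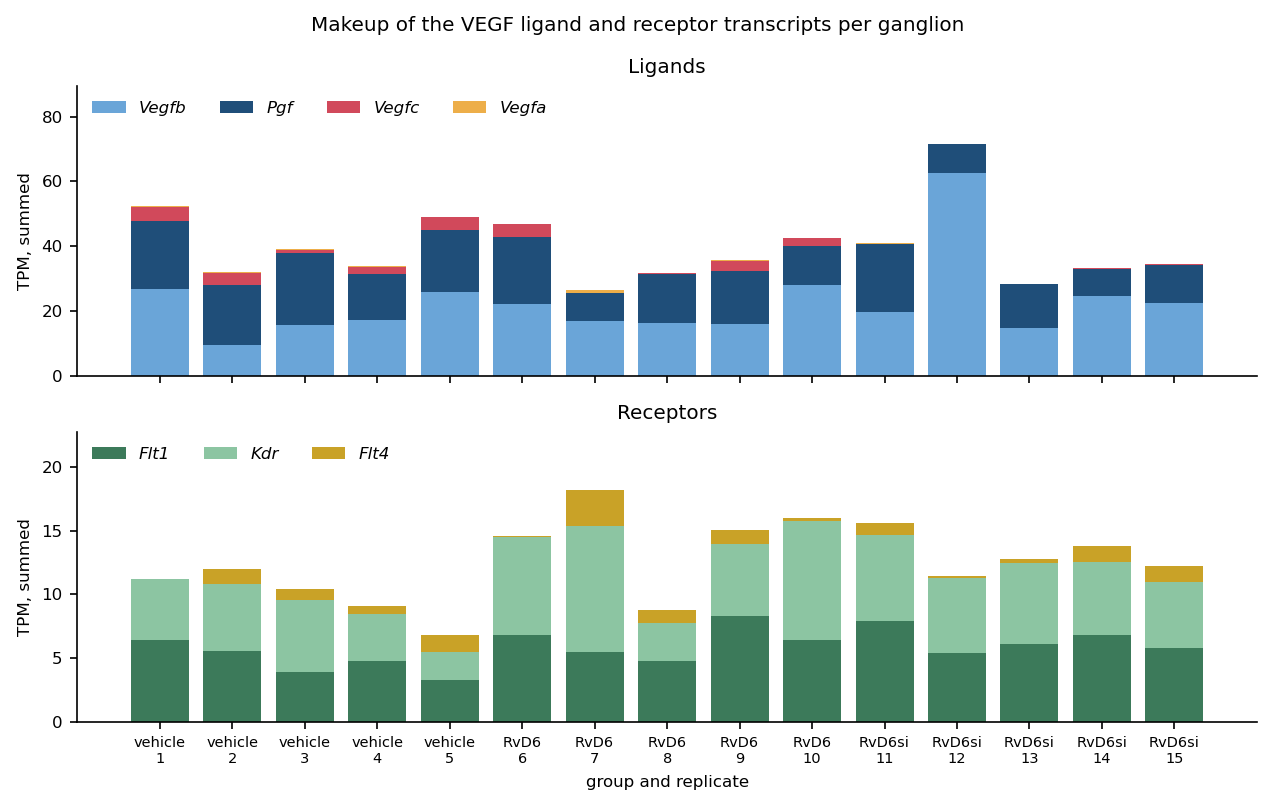
TPM of the VEGF ligands (top) and receptors (bottom) stacked for each of the 15 TG, with group and replicate on the x axis. The *Vegfc* segment is visible in the 5 vehicle samples and in RvD6 replicates 6, 9 and 10, and the tallest ligand bar is RvD6si replicate 12, where *Vegfb* reached 62.7 TPM.

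*Vegfc* (ENSMUSG00000031520.6, chr8:54077606-54187096, plus strand) encodes the lymphangiogenic ligand VEGF-C. Its reads numbered 43, 29, 11, 15 and 37 in vehicle replicates 1 to 5, and 41, 0, 1, 18 and 18 in RvD6 replicates 6 to 10. In RvD6si replicates 11 to 15 the reads numbered 0, 0, 0, 1 and 1. The 5 RvD6si samples lay below all 5 vehicle samples, and the RvD6 group was split, with replicates 7 and 8 at the RvD6si level. In normalized counts RvD6 replicates 6, 9 and 10 held 32.1, 22.3 and 18.1, where the vehicle samples spanned 8.83 to 31.0.

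Averages of *Vegfc* in normalized counts were 22.2 ± 9.91 for vehicle, 14.8 ± 13.8 for RvD6 and 0.532 ± 0.758 for RvD6si TG (SD, n = 5). Pooled over the group, 2 reads of 33715591 in RvD6si stood against 135 of 44013115 in vehicle and 78 of 36093108 in RvD6. With 2 reads in the group, the fitted fold changes of *Vegfc* depend on the prior count and are not bounds.

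RvD6 against vehicle gave *Vegfc* a log2 fold change of −0.58 (95% confidence interval −2.39 to 1.22, edgeR adjusted p = 0.814). It shares the vehicle samples with the comparison that put the gene forward and is not independent of that choice. The direct difference of the isomers, RvD6si against RvD6, was −4.74 on the log2 scale (−7.20 to −2.27) and did not pass the threshold in edgeR (adjusted p = 0.137), while DESeq2 gave an adjusted p of 0.0128. Without RvD6 replicate 7, which had 0 reads, the edgeR value became −5.06 with an adjusted p of 0.0400. Over the alternatives that kept the gene the adjusted p lay between 0.0128 and 0.321. The filters of the 2-group fit and of at least 10 counts in every sample removed it. This comparison shares the RvD6si samples with the one that put the gene forward and is not independent of it. Nothing is read from its p-values.

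*Pgf* (ENSMUSG00000004791.7, chr12:85166635-85177790, minus strand) encodes placental growth factor, PlGF, a ligand of VEGFR1. Its normalized counts were 181, 156, 213, 129 and 174 in vehicle replicates 1 to 5, and 194, 73.0, 142, 148 and 109 in RvD6 replicates 6 to 10. RvD6si replicates 11 to 15 held 157, 69.5, 108, 66.2 and 94.3. In all, 4 of the 5 RvD6si samples lay below every vehicle sample, replicate 11 lay within the vehicle range, and the RvD6 group spanned both.

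The mean of *Pgf* was 170.3 ± 31.0 in vehicle, 133 ± 45.2 in RvD6 and 98.9 ± 36.8 in RvD6si TG (SD, n = 5), and the RvD6si mean was 0.581 of the vehicle mean. RvD6 against vehicle gave a log2 fold change of −0.37 (−0.95 to 0.22, edgeR adjusted p = 0.595). RvD6si against RvD6 gave −0.42 (−1.01 to 0.17, edgeR adjusted p = 0.717), an interval that holds both 0 and a drop of 1.01 on the log2 scale.

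*Vegfb* (ENSMUSG00000024962.13, chr19:6982473-6987651, minus strand) encodes VEGF-B, another VEGFR1 ligand. Its normalized counts were 126, 45.4, 84.3, 86.6 and 131 in vehicle, and 117, 80.2, 85.5, 80.6 and 141 in RvD6 samples, in replicate order. RvD6si replicates 11 to 15 held 80.2, 277, 63.9, 109 and 101. Replicate 12 stood apart from the other 14 samples, which lay between 45.4 and 141, and the groups otherwise overlapped.

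The log2 fold change of *Vegfb* was 0.08 for RvD6 against vehicle (−0.70 to 0.85, edgeR adjusted p = 0.952) and 0.33 for RvD6si against RvD6 (−0.45 to 1.11, edgeR adjusted p = 0.846). Without RvD6si replicate 12 the latter became −0.18. The same library held 127.8 normalized counts of the endothelial cadherin gene *Cdh5*, of which the highest value in the vehicle and RvD6 groups was 39.1, and its summed blood endothelial markers were 1858, the lowest of the 15 samples.

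*Vegfa* (ENSMUSG00000023951.17, chr17:46016993-46032369, minus strand) encodes VEGF-A, and was near the limit of detection. Its reads numbered 5, 5, 4, 5 and 2 in vehicle, 4, 10, 2, 3 and 1 in RvD6, and 4, 2, 0, 2 and 1 in RvD6si samples, in replicate order. None of its 4285 exonic bases are shared with another annotated gene. Whether the library protocol or the counting lowered its reads was not tested. At 21, 20 and 9 pooled reads for vehicle, RvD6 and RvD6si it was below the filter on low counts. A two-sided exact permutation test of mean normalized counts gave p = 0.881 for RvD6 against vehicle (3.93 ± 3.01 and 3.57 ± 1.27) and p = 0.246 for RvD6si (1.96 ± 1.63) against RvD6, or 0.881 and 0.492 after adjustment over these 2 comparisons. The smallest p that 5 samples against 5 allow is 0.00794, and a change of *Vegfa* was not detectable at this depth.

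**Figure D2:**
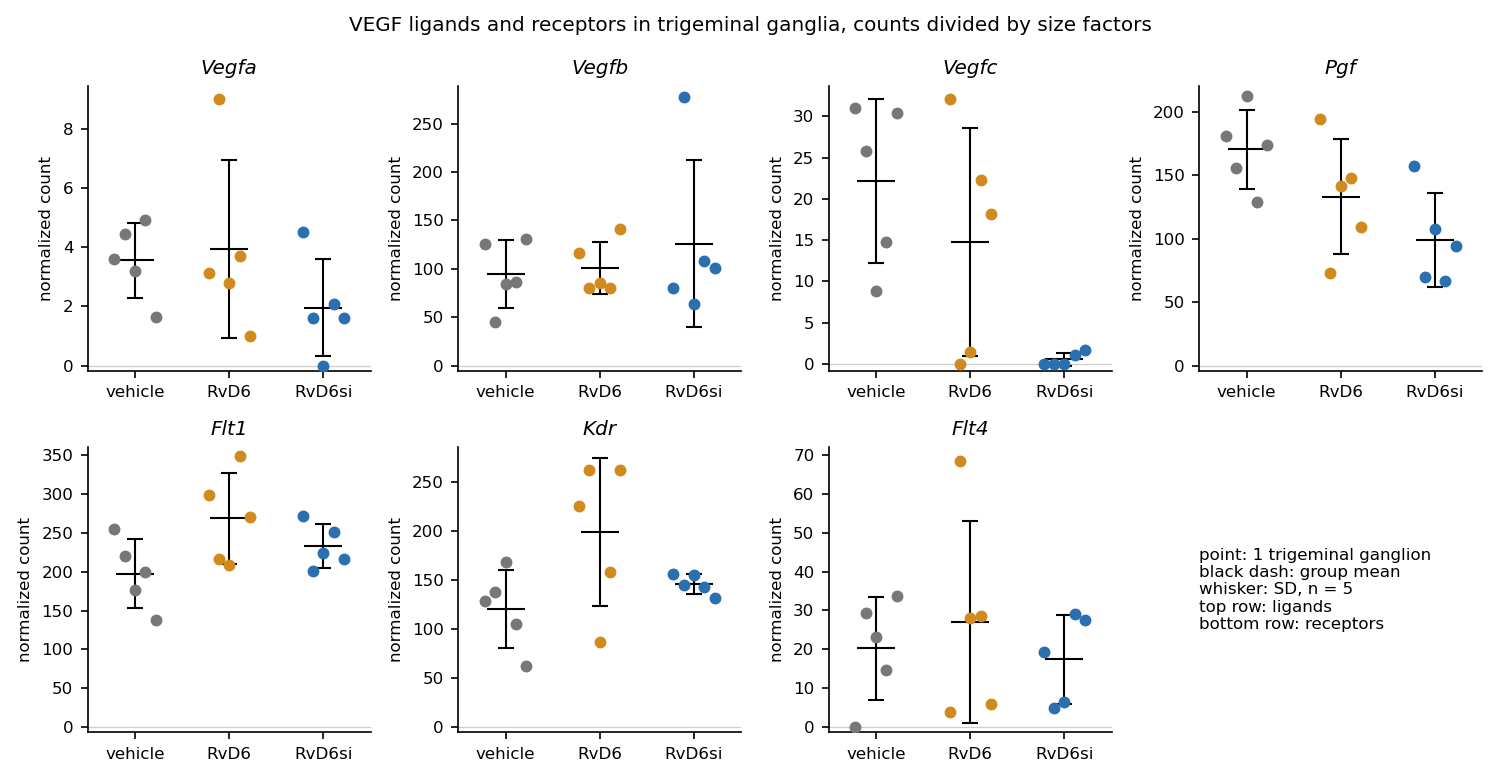
Normalized counts of the 7 genes, with 1 point per TG, a dash for the group mean and whiskers for the SD (n = 5). *Vegfc* sits between 0 and 1.63 in the 5 RvD6si samples and between 8.83 and 31.0 in vehicle, while each of the other genes overlaps between the groups.

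*Kdr* (ENSMUSG00000062960.10, chr5:75932827-75978458, minus strand) encodes VEGFR2, the main signalling receptor of VEGF-A. Its normalized counts were 129, 138, 169, 105 and 62.5 in vehicle replicates 1 to 5, and 226, 262, 86.9, 159 and 263 in RvD6 replicates 6 to 10. RvD6si replicates 11 to 15 held 157, 145, 155, 143 and 132, a narrow range inside that of vehicle. RvD6 replicates 6, 7 and 10 lay above all other samples, and replicates 8 and 9 were within the vehicle range.

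The mean of *Kdr* was 121 ± 39.9 in vehicle, 199 ± 75.8 in RvD6 and 146 ± 10.3 in RvD6si TG (SD, n = 5). RvD6 against vehicle gave a log2 fold change of 0.71 (0.11 to 1.31), with an unadjusted p of 0.0223 in edgeR that did not pass the threshold after adjustment (adjusted p = 0.295). RvD6si against RvD6 gave −0.44 (−1.03 to 0.16, edgeR adjusted p = 0.704). The 3 RvD6 libraries with the highest *Kdr* also held the highest bone marrow precursor sums of the 15, at 9031, 10970 and 11350. RvD6si replicate 15, with the next highest sum of 8469, held the lowest *Kdr* of its group, 132. The part of these cells in the *Kdr* level was not tested.

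*Flt1* (ENSMUSG00000029648.13, chr5:147561604-147726011, minus strand) encodes VEGFR1, and its count joins the membrane and the soluble form. Its normalized counts were 255, 219.8, 177, 199.7 and 138 in vehicle, 299, 216, 209, 349.5 and 271 in RvD6, and 272, 201, 225, 251 and 216 in RvD6si samples, in replicate order. Of the treated samples, 3 RvD6 and 1 RvD6si lay above the vehicle range, and the groups overlapped. RvD6 against vehicle gave a log2 fold change of 0.43 (0.02 to 0.84, edgeR adjusted p = 0.345, unadjusted p = 0.0415). RvD6si against RvD6 gave −0.20 (−0.61 to 0.21, edgeR adjusted p = 0.817).

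*Flt4* (ENSMUSG00000020357.3, chr11:49609263-49652739, plus strand) encodes VEGFR3, the receptor of VEGF-C. Its reads numbered 0, 33, 29, 15 and 41 in vehicle, 5, 76, 20, 23 and 6 in RvD6, and 17, 6, 7, 28 and 17 in RvD6si samples, in replicate order. Each group held both low and high samples. The log2 fold change was 0.40 for RvD6 against vehicle (−1.40 to 2.19, edgeR adjusted p = 0.885) and −0.63 for RvD6si against RvD6 (−2.44 to 1.19, edgeR adjusted p = 0.877), and RvD6 replicate 7 decided both signs, since without it they became −0.31 and 0.08. The intervals reach from −2.44 to 2.19 on the log2 scale, and a difference within them was not detectable with these samples.

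In whole TG, fewer cells of a type and less RNA per cell cannot be told apart, so the receptors were set beside endothelial markers. The 13 blood endothelial markers summed to 1939 to 3033 normalized counts in vehicle, 2022 to 2681 in RvD6 and 1858 to 2102 in RvD6si samples. Of the 13, edgeR called 0 in each of the 3 comparisons, with an unadjusted p under 0.05 for 3 in RvD6si against vehicle, 4 in RvD6 against vehicle and 1 in RvD6si against RvD6. DESeq2 called 2, *Esam* and *Ly6c1*, both lower in RvD6si than in vehicle TG, with medians of 200 against 453 and of 275 against 531 normalized counts. By sign the list was mixed, with 6 of the 13 above 0 and 7 below in RvD6si against vehicle. It had 5 above and 8 below in RvD6 against vehicle, and 4 above and 9 below in RvD6si against RvD6. The median log2 fold change of the 13 was −0.115, −0.10 and −0.20 in these 3 comparisons. The 6 lymphatic markers summed to 699.7 to 945, 725 to 1123 and 698 to 935 in the same order of groups. *Prox1*, the transcription factor that defines lymphatic endothelium, was at 0 in 1 vehicle, 2 RvD6 and 3 RvD6si samples, and its highest value was 40.4 in vehicle and 40.2 in RvD6si. *Mmrn1*, another gene of lymphatic endothelium, was below the filter on low counts and not tested, with 7.01 to 46.3 normalized counts in the 5 RvD6 samples against 0 to 5.77 in vehicle and 0 to 9.75 in RvD6si. Of the 5 lymphatic markers tested, edgeR and DESeq2 each called 0, and 0 had an unadjusted edgeR p under 0.05. *Reln* made up most of the list sum, with medians of 574, 613 and 567 in vehicle, RvD6 and RvD6si, followed by *Pdpn* with 167, 157 and 183, and *Ccl21a* had 30.3, 32.1 and 26.0. *Lyve1*, a hyaluronan receptor of lymphatic vessels and some macrophages, was counted in every sample, with medians of 26.6, 29.2 and 21.5.

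**Figure D3:**
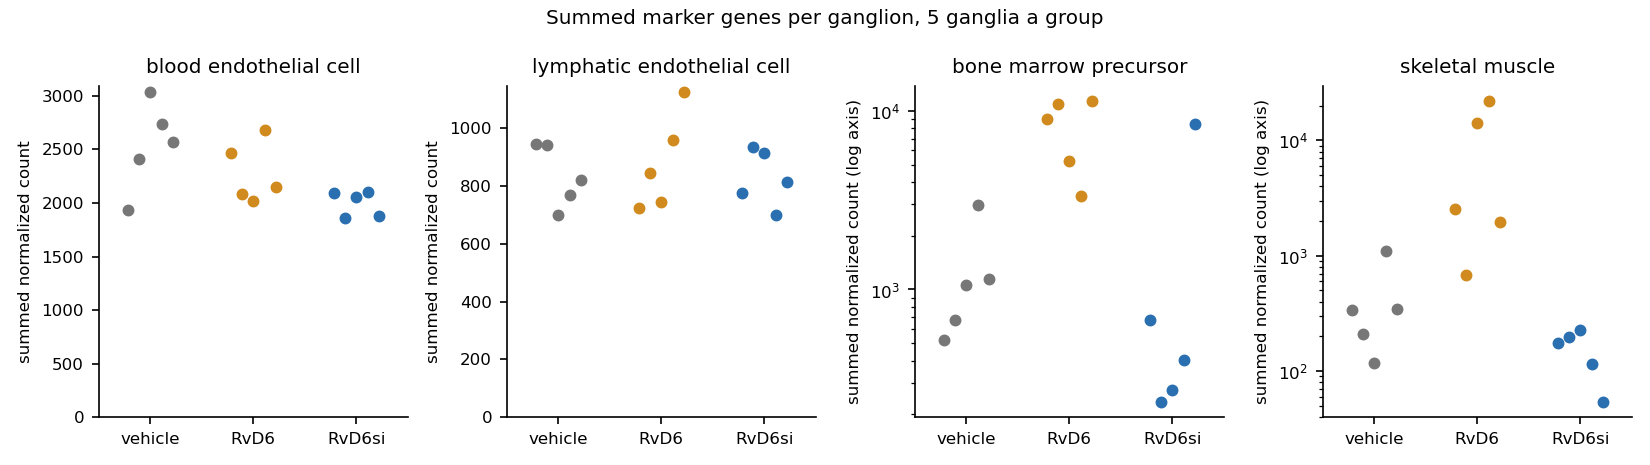
Summed normalized counts of 4 marker lists per TG, with linear axes from 0 for blood and lymphatic endothelial cells and log axes for bone marrow precursors and skeletal muscle. The endothelial sums overlap between groups, whereas bone marrow precursor sums are 3330 or more in the 5 RvD6 samples and 2975 or less in the 5 vehicle samples.

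Across the table, RvD6si against vehicle called 111 of 16567 tested genes in edgeR (0.67%), and 1 of the 6 tested family members, *Vegfc*, was among them. That contrast chose the family, so nothing is read from this count. In RvD6 against vehicle 0 of the 6 members were called, beside 0 of 16567 genes (0%). Of all genes 2256 (13.6%) had an unadjusted p under 0.05 in that comparison, as had 2 of the 6 members, *Kdr* and *Flt1*, and DESeq2 called 369 genes but no member. In RvD6si against RvD6 0 of the 6 members and 39 of 16567 genes (0.235%) were called by edgeR, and 1 member, *Vegfc*, had an unadjusted p under 0.05, as had 1461 genes (8.8%). Nothing is read from that p of *Vegfc*, because its RvD6si values chose the family.

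Groups of normalized counts that did not overlap were found for 4.88% of tested genes in RvD6si against vehicle, where *Vegfc* was the member that separated. They were found for 3.72% in RvD6 against vehicle and 1.74% in RvD6si against RvD6, where 0 of the 6 members separated. The median log2 fold change of the 6 members was 0.24 in RvD6 against vehicle, beside 0.02 over all genes, and −0.43 in RvD6si against RvD6, beside −0.004 over all genes. Both treatments share the same vehicle samples. By sign, 4 of 6 members were above and 2 below 0 in RvD6 against vehicle, and 1 above and 5 below in RvD6si against RvD6. The 6 include *Vegfc*, whose counts in RvD6si against vehicle chose the family. These medians and signs are therefore descriptions, and no shift of the family is read from them.

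**Figure D4:**
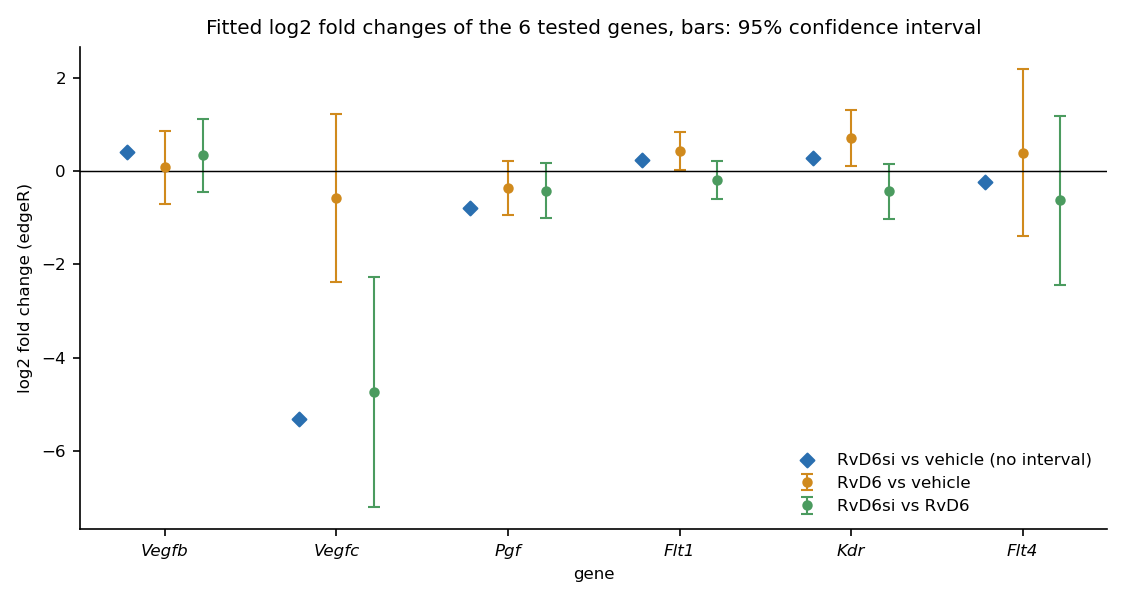
Log2 fold changes from edgeR for the 6 genes that passed the filter on low counts, with 95% confidence intervals as bars for RvD6 against vehicle and RvD6si against RvD6, and points without an interval for RvD6si against vehicle, which chose the family. The *Vegfc* values for RvD6si rest on 2 reads in that group, and the intervals of *Kdr* and *Flt1* for RvD6 against vehicle lie above 0 before adjustment over genes.

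The neuropilins, co-receptors that bind VEGF ligands and semaphorins, were counted more deeply than the family itself. *Nrp1* averaged 441 ± 98.1 normalized counts among vehicle TG, against 568 ± 81.8 in RvD6 and 649 ± 91.8 in RvD6si TG (SD, n = 5). Its log2 fold change was 0.55 for RvD6si against vehicle (0.20 to 0.91, edgeR adjusted p = 0.115, DESeq2 adjusted p = 0.0250, the lowest of its alternatives, which reached 0.261) and 0.35 for RvD6 against vehicle (edgeR adjusted p = 0.379). RvD6si against RvD6 gave 0.20 for *Nrp1* (−0.15 to 0.56, edgeR adjusted p = 0.774). *Nrp2*, the co-receptor of VEGF-C, averaged 315 ± 52.2, 378 ± 41.9 and 386 ± 61.5, with edgeR adjusted p-values of 0.389 and 0.513 for RvD6si and RvD6 against vehicle. The remaining ligand, *Vegfd*, ranged from 0 to 24.2 normalized counts, and each group held samples at or near 0.

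Of the 12 co-ligand, co-receptor and VEGF-C processing genes, 12 were tested and edgeR called 0 in each of the 3 comparisons, while DESeq2 called 1, *Nrp1*, in RvD6si against vehicle. An unadjusted edgeR p under 0.05 was found for *Nrp1* in that comparison and for 1 gene, *Ptprb*, in RvD6si against RvD6. The median log2 fold change of the 12 was 0.27 in RvD6si and 0.38 in RvD6 against vehicle, beside 0.015 and 0.024 over all genes. *Ptprb*, an endothelial phosphatase that acts on VEGFR2 and TIE2, averaged 148 ± 64.2 in vehicle, 221 ± 70.9 in RvD6 and 119 ± 25.5 in RvD6si TG. Its 5 RvD6si samples lay below the 5 RvD6 samples, with a log2 fold change of −0.89 (−1.51 to −0.26) that did not pass in edgeR (adjusted p = 0.338).

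In the PDGF family and the related class III receptors 12 of 13 genes were tested and edgeR called 0 in each comparison, with an unadjusted p under 0.05 for 1 gene in RvD6si against vehicle, 0 in RvD6 against vehicle and 2 in RvD6si against RvD6. DESeq2 called 1, *Flt3*, in RvD6si against vehicle. The tested genes had log2 fold changes with medians of 0.16 in RvD6si and 0.25 in RvD6 against vehicle. *Flt3*, a receptor of blood progenitors, averaged 128 ± 62.3 in RvD6si against 62.1 ± 12.4 in vehicle TG (log2 fold change 1.05, edgeR adjusted p = 0.143, DESeq2 adjusted p = 0.0430). *Pdgfb*, a pericyte-recruiting ligand, averaged 18.6 ± 7.17 in RvD6si and 42.3 ± 15.9 in RvD6 TG (−1.17, edgeR adjusted p = 0.378). *Kit*, *Pdgfra* and *Pdgfrb*, the receptors of stem cell factor and PDGF, had log2 fold changes of 0.41, 0.17 and 0.21 in RvD6si and 0.32, 0.64 and 0.28 in RvD6 against vehicle, with edgeR adjusted p-values of 0.441 or more.

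Of 18 genes of the angiopoietin, apelin and Notch axes 16 were tested and edgeR called 0 in each comparison, with an unadjusted p under 0.05 for 2 genes in RvD6si against vehicle, 0 in RvD6 against vehicle and 2 in RvD6si against RvD6. DESeq2 called 1, *Notch1*, in RvD6si against vehicle. The tested genes had log2 fold changes with medians of 0.26 in RvD6si and 0.43 in RvD6 against vehicle. *Notch1*, which restrains endothelial sprouting, averaged 290 ± 24.4 in RvD6si and 439 ± 106 in vehicle TG, and the 5 RvD6si samples lay below the 5 vehicle samples (log2 fold change −0.60, edgeR adjusted p = 0.145, DESeq2 adjusted p = 0.0497). *Esm1*, a gene of endothelial tip cells, averaged 25.0 ± 15.2 in vehicle, 65.1 ± 37.0 in RvD6 and 52.4 ± 17.2 in RvD6si TG, with edgeR adjusted p-values of 0.369 and 0.444 for RvD6 and RvD6si against vehicle. The Notch target genes *Hes1* and *Heyl* had log2 fold changes of 0.63 and 0.86 in RvD6si and of 0.64 and 0.77 in RvD6 against vehicle, with edgeR adjusted p-values of 0.306 or more. The lists were drawn up with earlier results of these samples known, and their counts are not independent evidence of a direction.

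Patterns over the 15 samples were compared by Pearson's r of log2 CPM, counts scaled to the total of the tested genes after TMM normalization. The r values are a description across samples that share 3 groups and unequal depth. *Flt1* and *Kdr* had r = 0.57, or 0.40 after the group means were removed, and *Vegfc* and *Pgf* had r = 0.68, or 0.37 within groups. *Vegfc* and its receptor gene *Flt4* had r = −0.27, and *Pgf* and *Flt1* had r = −0.01. The genes nearest to *Pgf* were *Psma5*, a proteasome subunit, *Oxsm*, *Nol7*, *Gtf2h5*, a subunit of transcription factor TFIIH, and *Nudt7*, with r from 0.84 to 0.89. Those nearest to *Vegfc* were *Mrpl48*, a mitochondrial ribosomal protein, *Acp1*, *Serpina1b*, *Gm5586* and *Gm15682*, with r from 0.81 to 0.86. *Serpina1b* averaged −0.01 log2 CPM and, like *Vegfc* itself, is sparse.

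The genes nearest to *Kdr* were *Gata2*, a transcription factor of endothelial and blood progenitor cells, *Qser1*, *Pxk*, *Abr* and *Sp7*, a transcription factor of bone-forming cells, with r from 0.80 to 0.84. Those nearest to *Flt1* were *Aebp1*, *Capn15*, *Zfp317*, *Asna1* and *Scara3*, with r from 0.83 to 0.89. *Vegfb* was nearest to *Hnrnpd*, *Rpl36-ps12*, *Gpr27*, *Etl4* and *Gm13416*, with r from 0.78 to 0.81, and *Flt4* to *Fam49a*, *Gbp6*, *5330434G04Rik*, *Zrsr2* and *Zranb3*, with r from 0.77 to 0.86. No family member was among the nearest genes of another, and neither was a gene of the blood or lymphatic endothelial lists.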

How the data were processed

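The deposited table holds raw read counts of 55573 genes in 15 TG. The authors amplified poly(A) RNA by an adapted Smart-seq2 protocol that keeps no strand, aligned the reads with Rsubread to GRCm38 with GENCODE M22 and counted exonic reads per gene with featureCounts. The table also gives each gene's exonic length, an annotation value in bases that the authors deposited beside the counts and that was used for TPM. Counts per gene do not separate isoforms. All per-sample columns were used.

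The 7 members and all gene lists were chosen with earlier results of these data known. Samples were grouped by the treatment label. The labels name no batch, and they do not say how the samples were drawn from mice, so p-values measure the spread between these samples, which may be technical in part. No sample was a copy of another in its group, since the chi-square per degree of freedom between pairs was 11.3 to 49.2, where 1 is sampling noise.

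The main test was the quasi-likelihood test of edgeR 4.0.16 (R 4.3.3) over all 15 samples in 3 groups, with TMM normalization, its filter on low counts (minimum count 10, minimum total 15), which kept 16567 genes, and Benjamini-Hochberg adjustment at 0.05. Alternatives were DESeq2 1.42.0, RLE normalization, no filter, 10 counts in every sample, fits of 2 groups, removal of the gene length trend (lowess, span 0.3), thinned counts and leaving out each library. Normalized counts are counts divided by DESeq2 size factors, TPM ratios used a pseudocount of 0.1 and log2 CPM a prior count of 2. *Vegfa*, below the filter, was compared by exact permutation (SciPy 1.17.1). Steps were tested on simulated data.

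Named beside the members are *Nrp1*, *Nrp2* and *Vegfd*, the 5 genes nearest each tested member by Pearson's r, and from each of 4 pathway lists every gene with an adjusted p under 0.05 in any comparison, otherwise the 3 with the lowest p in RvD6si and the 3 in RvD6 against vehicle. The results of 1 of these lists, VEGF receptor signalling, are not reported here. Marker genes were named with their lists. Symbols came from GENCODE M21, which named 99.7% of the gene identifiers. Gene positions came from the exon annotation deposited with the counts, and promoters from RefSeq on GRCm38.p6.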

Additional observations from a re-analysis of the deposited data

Results flagged for a closer look

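*Vegfb* in RvD6si replicate 12 stood apart from the rest of its group. It held 277 normalized counts, while the other 4 RvD6si samples lay between 63.9 and 109, a gap of 0.790 of the whole range where the 95% critical value for 5 samples is 0.71. This was 1 of 21 groups of 5 values examined, and chance alone marks about 1 in 20 such groups.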

How the results depend on the processing

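RvD6si against vehicle called 111 genes, 315 with at least 10 counts in every sample, 920 with DESeq2, 63 with the gene length trend removed and 0 to 229 when 1 library was left out, with 0 without RvD6si replicate 11. RvD6 against vehicle called 0 genes, 56 with no filter, 24 with at least 10 counts in every sample, 369 with DESeq2, 38 with the 2 groups only, 1 with thinned counts, and 0 to 51 when 1 library was left out. RvD6si against RvD6 called 39, 59 with no filter, 23 with at least 10 counts in every sample, 185 with DESeq2, 17 with the 2 groups only, and 2 to 156 when 1 library was left out. An alternative added after the data were seen left out RvD6 replicates 8 and 9 and RvD6si replicate 15 and called 156, 36 and 94. RvD6 replicates 8 and 9 were highest in muscle markers, and RvD6si replicate 15 was highest of its group in bone marrow precursor markers. RvD6 replicates 6, 7 and 10, the highest of the 15 samples in bone marrow precursor markers, were kept. The causes were not tested. RvD6si against vehicle chose the family, so the edgeR call of *Vegfc* there is no test of the gene. That call held in 0 of 10 fits without 1 vehicle or RvD6si library and in 3 of 5 without 1 RvD6 library. Fitted log2 fold changes in these fits were −5.96 to −4.98. The gene was called with RLE normalization (−5.32), with no filter (−5.30) and with thinned counts (−4.77). It was not called with the gene length trend removed (−5.25) or in the added alternative (−5.98). The filter of at least 10 counts in every sample removed *Vegfc*, as did that of the 2-group fit in both comparisons with RvD6si. DESeq2 gave it no adjusted p in RvD6si against vehicle. No other member changed its call, apart from *Vegfc* in RvD6si against RvD6.

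Some directions turned. In RvD6si against vehicle, leaving out 1 library gave −0.10 to 0.57 for *Vegfb*, −0.566 to 0.035 for *Flt4* and −0.12 to 0.75 for *Pdgfra*. In RvD6 against vehicle it gave −0.10 to 0.22 for *Vegfb*, −0.31 to 0.67 for *Flt4*, −0.34 to 1.15 for *Vegfd* and −0.08 to 0.21 for *Flt3*. In RvD6si against RvD6 it gave −0.18 to 0.50 for *Vegfb*, −0.913 to 0.079 for *Flt4*, −0.43 to 0.68 for *Vegfd*, −0.039 to 0.106 for *Nrp2*, −0.547 to 0.034 for *Esm1*, −0.293 to 0.094 for *Hes1*, −0.12 to 0.29 for *Heyl*, −0.094 to 0.251 for *Kit* and −0.15 to 0.093 for *Pdgfrb*. The RvD6 to vehicle difference of *Vegfa* was 0.368 normalized counts and ranged from −0.902 to 1.10. *Hes1* in RvD6si against RvD6 was 0.018 with no filter, 0.008 with the 2 groups only, 0.011 without the length trend and 0.091 with thinned counts. *Flt3* in RvD6 against vehicle was −0.034 without the length trend, and in the added alternative *Notch1* in RvD6 against vehicle was 0.018 and *Nrp2* in RvD6si against RvD6 was −0.077. With a pseudocount of 1 the log2 ratio of *Vegfa* to *Vegfb* was −3.90, −4.00 and −4.49 in vehicle, RvD6 and RvD6si, in place of −5.65, −5.81 and −6.72. No paired analysis was possible because the labels name no pairing, and the replicate numbers are running sample numbers that carry none.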
